A study of Saccharomyces cerevisiae with 17 samples.

Results

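The small subunit processome and the 40S assembly factors of budding yeast (Saccharomyces cerevisiae) were followed here as 46 genes given by a fixed list of gene IDs, out of 6572 features in the count files. RNA levels were compared between a wild-type strain and a brr6-1 mutant, each grown in glucose or shifted to galactose. The list holds 7 genes of the UtpA complex, 5 of UtpB, 3 of the Mpp10 complex, 4 protein genes of the U3 snoRNP, 8 enzymes, 15 other processome factors and 4 late factors that stay with the 40S precursor. The list follows the genes' known roles and not a cutoff on measured values, but it was drawn up with earlier results of these data known. All 46 had counts high enough to be tested.

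The small subunit processome is the large particle that forms on the nascent ribosomal RNA precursor in the nucleolus, where the small ribosomal subunit begins to be made. UtpA binds the leader of the precursor first, UtpB and the U3 snoRNP follow, and the U3 RNA pairs with the precursor to guide its folding and cleavage. GTPases, helicases, a nuclease and a methyltransferase then remodel and cut the RNA, and late factors such as Enp1, Ltv1, Tsr1 and Rrp12 accompany the precursor towards the cytoplasm. In yeast these genes belong to a large set that is turned up when cells grow fast on a rich sugar and turned down under stress or poorer conditions.

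Both strains were MATα and carried trp1, leu2, ura3, ade2 and lys2 markers. The wild type (WT) was YPH399. The mutant was yDBK168, which also carries brr6-1:LEU2:HIS3, a point mutation that changes an arginine to a lysine in the putative zinc finger of Brr6; the Brr6 protein sits in the nuclear envelope. Cells grew at 30 °C in rich YEP medium with 2% glucose, or with 2% raffinose and 0.04% sucrose before 2% galactose was added for 2 h, so the galactose cultures differed from the glucose cultures in all 4 sugars. Each of the 4 groups had 2 biological replicates, A and B, of RNA depleted of ribosomal RNA and read on a directional single-end protocol. With 1 mutant strain, the effect of the allele cannot be told apart from other differences of that strain.

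The libraries held 15059271 to 21637381 counts in genes. Levels are given as CPM, read counts made comparable across libraries with the trimmed mean of M values (TMM), and as that value per kilobase of coding sequence (RPKM) where genes are compared with each other. BRR6 RNA, which this point mutation does not remove, was at 28.0 and 29.5 CPM in WT glucose, 24.4 and 19.1 in WT galactose, 98.5 and 103 in brr6-1 glucose, and 216 and 169 in brr6-1 galactose, so the libraries of the 2 strains did not overlap. GAL1, the galactokinase gene, was at 34.4 to 69.2 CPM in the glucose libraries and 7650 to 17200 in the galactose libraries. The MATα genes MF(ALPHA)1 and STE3 were at 87 CPM or more in every library, while the MATa genes STE2 and MFA1 stayed at 8.07 CPM or less. In brr6-1, 133 of the 159 tested genes on chromosome III were higher than in WT in glucose and 125 in galactose; none of the 46 genes lies on that chromosome. Replicates differed by more than sampling noise. In the galactose groups the 46 genes shifted between replicates as a set, with a median difference of A minus B of -0.24 on the log2 scale in WT (7 genes higher in A) and 0.24 in brr6-1 (42 genes higher in A). The WT glucose libraries also shifted as a set, by a smaller median of -0.12 (3 genes higher in A). In brr6-1 glucose the median was 0.10 (34 genes higher in A).

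Levels per length spread widely within the particle. In WT glucose the mean RPKM ran from 11.4 for UTP6, a UtpB subunit, to 741 for NSR1, a nucleolin-like protein gene, with a median of 158. NSR1 was followed by NOP56, a core protein of the U3 snoRNP, at 522 ± 5.19 RPKM (SD, n = 2) and by DIP2, a UtpB subunit, at 412 ± 34.6 RPKM. At the low end were UTP7 at 12.5 ± 0.883 RPKM, NOC4, the partner of Nop14, at 13.6 ± 0.516 RPKM, and IMP3 at 20.2 ± 0.45 RPKM. Subunits of one complex were therefore far apart, as in the U3 snoRNP, where the methyltransferase gene NOP1 was at 35.6 ± 0.547 RPKM and NOP58 at 124 ± 4.57 RPKM beside NOP56. The span between UTP6 and NSR1 was 65.0-fold in WT glucose and the spread between replicates was small against it. How evenly reads were counted along each gene was not tested.

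The summed level of the 46 genes set WT galactose apart. It was 17840 and 19800 CPM in WT glucose, 11170 and 12890 in WT galactose, 18410 and 15470 in brr6-1 glucose, and 16390 and 13830 in brr6-1 galactose. Both WT galactose libraries lay below the other 6, and the brr6-1 groups overlapped each other. As an unscaled share of gene counts the WT galactose libraries were again the lowest, at 1.17% and 1.24%. WT glucose, at 1.48% and 1.6%, was then below every brr6-1 library. Those ran from 1.61% in brr6-1 glucose B to 1.96% in brr6-1 galactose A. The order of WT glucose and brr6-1 thus depended on the scaling. Gene by gene, the group mean of scaled CPM was highest in WT glucose for 28 of 46 and lowest in WT galactose for 33. This order of group means was not counted over all genes. Both WT galactose libraries were below the other 6 for 20 of the 46 genes, against 9.93% of all 6297 genes tested, and both WT glucose libraries were above the other 6 for 20, against 21%.

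**Figure D1:**
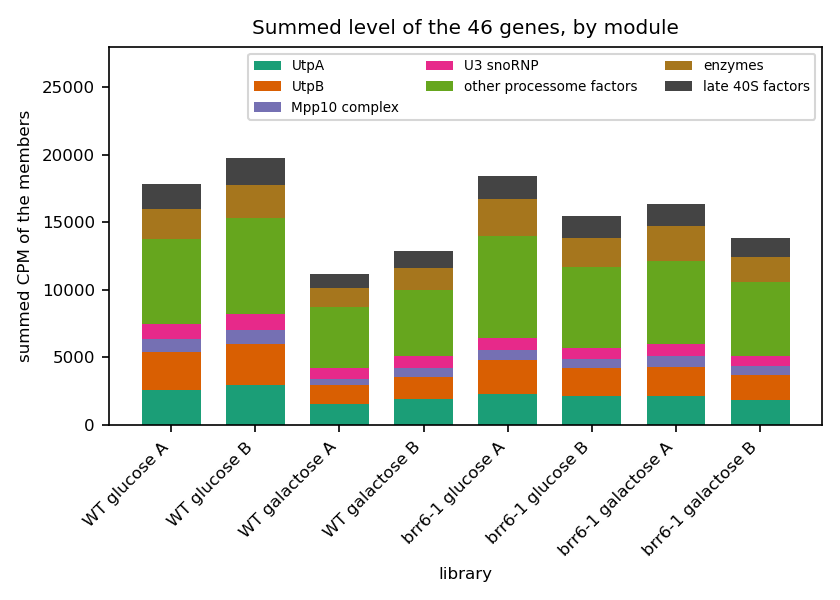
Summed CPM of the 46 genes in each of the 8 libraries, stacked by complex or role. The WT galactose bars, at 11170 and 12890 CPM, are the lowest, and the other 6 run from 13830 to 19800.

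The change from glucose to galactose in WT was a broad fall. Of the 46 genes, 30 fell and 0 rose at an adjusted p under 0.05, the threshold used throughout (edgeR quasi-likelihood test on all 8 libraries, Benjamini-Hochberg over 6297 genes). That is 65.2% lower, where 20.5% of all genes were called lower and 24.3% higher. Of the other genes within the range of mean level of the 46, outside chromosome III, 25.8% were called lower. Those genes shared the range but had a lower median level, 6.33 log2 CPM against 7.98 for the 46. The median change of the 46 was -0.61 on the log2 scale against 0.10 for all genes. The libraries of the 2 groups did not overlap for 39 genes that were lower in galactose, against 34.7% of all genes, and for 2 that were higher, against 41.2%. At an unadjusted p under 0.05, 1 of the 46 genes was higher, against 1818 of all 6297 genes. In bulk RNA, less RNA in every cell cannot be told apart from fewer cells that hold it.

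UTP21 and DIP2, both WD-repeat subunits of UtpB, fell about as far as any gene of the particle. UTP21 (YLR409C, chromosome XII, 934414 to 937233 in R64) was at 934 and 1070 CPM in WT glucose and at 418 and 493 in WT galactose, a log2 change of -1.14 ± 0.16 (SE, adjusted p = 0.00045). The 2 groups lay far apart, and every fit that left out 1 library called the fall, with adjusted p up to 0.007. DIP2 (YLR129W, chromosome XII, 399657 to 402488) went from 1100 and 1240 CPM to 537 and 615, a log2 change of -1.02 ± 0.17 (adjusted p = 0.00113). UTP18 (-0.78) and UTP13 (-0.61) fell too, which makes 4 of the 5 UtpB genes; the remaining one, UTP6, was at 14.8 and 15.3 CPM in glucose and 17.5 and 16.1 in galactose and did not pass (0.16 ± 0.17, adjusted p = 0.463).

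In UtpA, the complex that first meets the precursor, 5 of 7 genes fell. UTP5 (-0.96 ± 0.16), UTP9 (-0.92 ± 0.15), UTP4 (-0.88 ± 0.17) and UTP15 (-0.64 ± 0.15) led. UTP10, the longest UtpA subunit, was at 629 and 692 CPM in glucose and 446 and 529 in galactose (-0.44 ± 0.15, adjusted p = 0.0327). Its groups did not overlap, but the call was lost without WT glucose A, WT glucose B or WT galactose A, at adjusted p up to 0.154. UTP8 did not pass, at 62.9 and 71.1 CPM in glucose and 64.1 and 77.3 in galactose (0.08 ± 0.13), and neither did NAN1 (-0.32 ± 0.14).

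The Mpp10 complex, which docks onto the U3 snoRNP and the precursor, split between its subunits. IMP4 (YNL075W, chromosome XIV, 485607 to 486479) fell from 263 and 283 CPM to 105 and 158 (-1.05 ± 0.19, adjusted p = 0.00151), and its scaffold MPP10 fell by 0.83 on the log2 scale. IMP3 (YHR148W, chromosome VIII, 393534 to 394085) was at 11.0 and 11.3 CPM in glucose and 11.7 and 11.1 in galactose, so its groups overlapped (0.03 ± 0.21, adjusted p = 0.922). Among the U3 snoRNP protein genes only NOP56 was called, at -0.57 ± 0.15, a call that was lost without WT glucose B or WT galactose A (adjusted p up to 0.0681). NOP1 was at 34.7 and 35.4 CPM in glucose and 28.8 and 31.7 in galactose (-0.21 ± 0.24, adjusted p = 0.499). RRP9, which binds the U3 RNA, and NOP58 had log2 changes of -0.37 and -0.13 that did not pass.

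Of the 8 enzymes, 4 fell. The DEAD-box helicase gene DBP8 went from 255 and 271 CPM to 96.7 and 167 (-1 ± 0.22, adjusted p = 0.00506), with galactose A well below galactose B and both below glucose. RCL1, the cyclase-like partner of the GTPase Bms1, fell from 363 and 361 CPM to 148 and 226 (-0.95 ± 0.19), and the helicase genes HCA4 (-0.84) and FAL1 (-0.70) fell as well. BMS1 itself had a change of similar size that did not pass (-0.60 ± 0.23, adjusted p = 0.0528). ECM16, the DEAH-box helicase that removes U3, ROK1 and the methyltransferase gene EMG1 did not pass either, at -0.40, -0.18 and -0.06.

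Among the 15 other processome factors 10 fell, led by UTP11 (-0.96), SOF1 (-0.76), NSR1 (-0.74) and UTP30 (-0.72). UTP22, which works with Rrp7 in UtpC, was at 436 and 524 CPM in glucose and 337 and 374 in galactose (-0.43 ± 0.14, adjusted p = 0.0325), and was not called without WT glucose B or WT galactose A (adjusted p up to 0.169). The 5 that did not pass included UTP7, the one gene of the 46 at an unadjusted p under 0.05 on the higher side, at 19.7 and 21.8 CPM in glucose and 25.4 and 30.0 in galactose (0.42 ± 0.17, adjusted p = 0.0667). NOC4 stayed at a log2 change of 0.00 ± 0.17. The late factors fell together, 4 of 4: TSR1 (-0.87 ± 0.15), a GTPase-like factor, LTV1 (-0.77 ± 0.20), ENP1 (-0.74 ± 0.17) and RRP12 (-0.43 ± 0.13). ENP1 was at 330 and 347 CPM in glucose and 162 and 243 in galactose. LTV1 went from 309 and 344 CPM to 162 and 221, again with galactose A the lowest, and its call was lost without WT glucose B or WT galactose A (adjusted p up to 0.0818), as was that of RRP12 (up to 0.124).

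**Figure D2:**
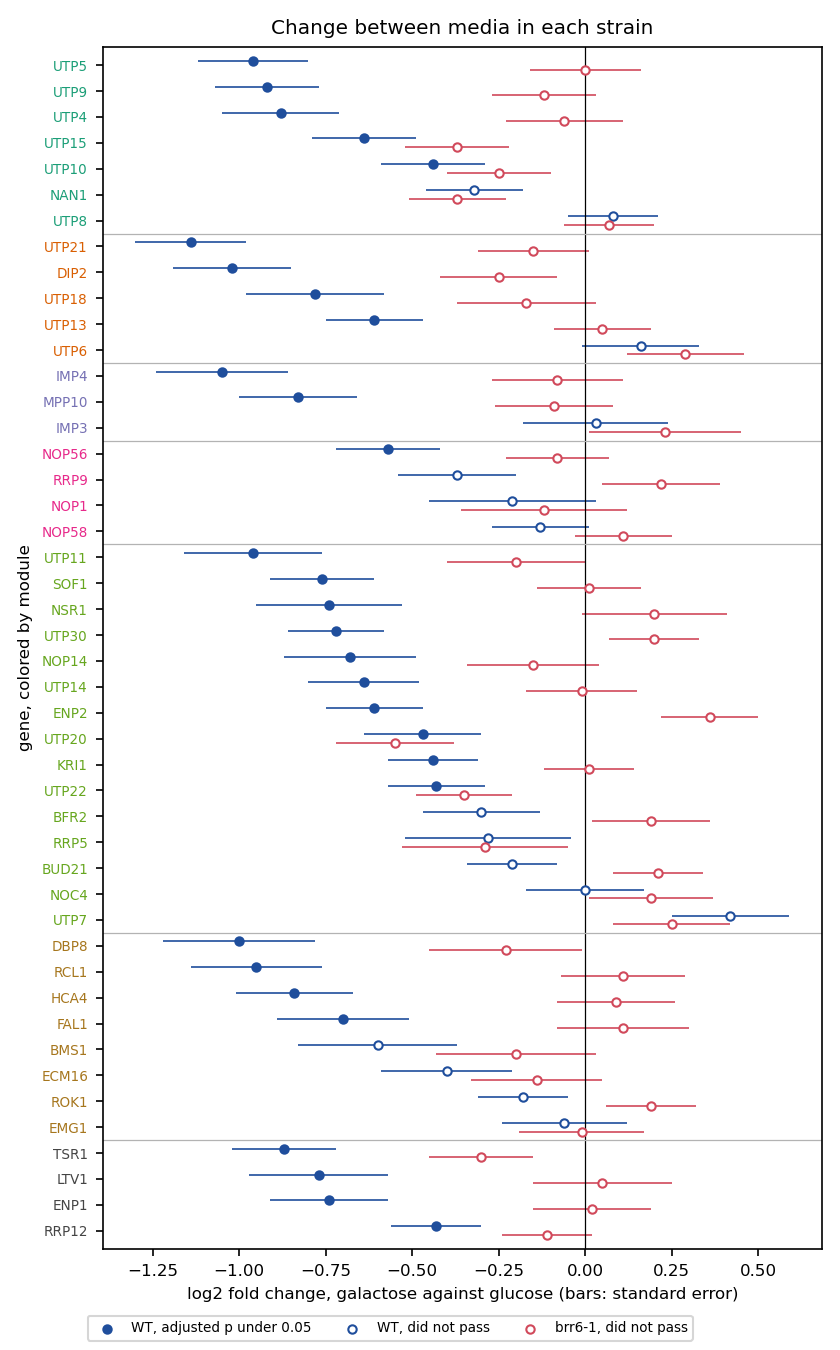
Log2 fold change from glucose to galactose for each of the 46 genes in WT (blue) and brr6-1 (red), grouped by complex or role, with standard errors as bars. Filled points passed an adjusted p under 0.05: 30 genes in WT, from -1.14 to -0.43, and none in brr6-1.

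Leaving out 1 library changed how many of these falls were called but turned none of them. All 30 held their direction, 17 of them passed with each of the 8 libraries left out in turn, and the calls kept were 17 without WT glucose B and 21 without WT galactose A. With library totals in place of TMM, the median of all genes moved from 0.10 to 0.40 and calls went from 54.3% to 79.7% higher; the 46 genes then had a median of -0.32, with 16 lower and 2 higher. Relative to the median of all genes the 46 were at -0.71 under both scalings. These scalings move all genes nearly alike, so that value could hardly change and is no check of the fall. Cyclic loess, which removes trends with level, left a median of -0.35, or -0.34 relative to the median of all genes. It left 18 lower and turned UTP20 to 0.16.

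The fall in WT was larger for genes with more RNA per length. Against the mean RPKM of the 4 brr6-1 libraries, which do not enter the comparison, the log2 change of the 46 genes had a Pearson correlation of -0.71 and a Spearman correlation of -0.61. All 5757 tested genes with a length gave -0.48 and -0.60, so a similar trend ran through the whole transcriptome; genes share libraries and are not independent. Of the 23 genes above the median level of 131 RPKM, 21 fell, with a median of -0.77. Of the 23 below it, 9 fell, with a median of -0.32. The genes at the bottom of the range, NOC4, UTP7, UTP6 and IMP3, were among those that did not pass.

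**Figure D3:**
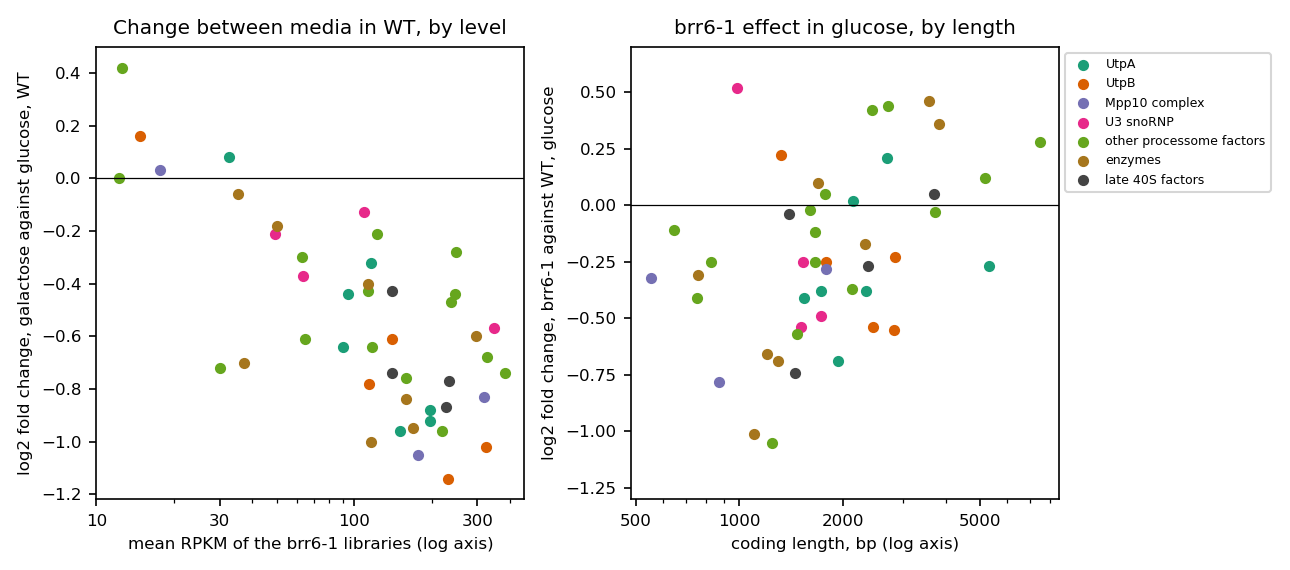
Left, log2 change from glucose to galactose in WT against mean RPKM of the brr6-1 libraries (log axis), 1 point a gene; the 23 genes above 131 RPKM have a median of -0.77 and those below it -0.32. Right, log2 difference of brr6-1 against WT in glucose against coding length in bp (log axis); the 16 shortest genes have a median of -0.48 and the 15 longest 0.05.

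In the brr6-1 strain no fall of this kind was called. Between glucose and galactose 0 of the 46 genes rose and 0 fell by edgeR's test, where 8.75% of all genes were called higher and 7.26% lower, and the median was -0.01 against 0.04 for all genes. At an unadjusted p under 0.05, 1 was higher and 4 were lower, against 951 and 882 of all 6297 genes. DESeq2's Wald test called 2 of the 46 lower. The groups did not overlap for 8 genes lower and 4 higher in galactose, against 25.7% and 31.9% of all genes. UTP5 was at 280 and 304 CPM in brr6-1 glucose and 292 and 290 in brr6-1 galactose, a change of 0.00 ± 0.16. UTP14, the activator of the Ecm16 helicase, was at 344 and 289 CPM and then 355 and 272, with overlapping groups. UTP20, a long scaffold protein, came nearest to a call, from 2340 and 1880 CPM to 1380 and 1500 (-0.55 ± 0.17, adjusted p = 0.0519). ENP2 had the largest positive value, 0.36 ± 0.14 (adjusted p = 0.107).

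A p above the threshold in one strain and below it in the other does not show that the strains differ, so the difference was tested itself. It is the effect of brr6-1 in galactose minus its effect in glucose, which equals the media change in brr6-1 minus that in WT. It was positive for 41 of the 46 genes, with a median of 0.56 against -0.05 for all genes. At the adjusted threshold 5 genes were called higher (10.9%) and 0 lower, where 1.65% of all genes were called higher and 3.94% lower. At an unadjusted p under 0.05, 25 of the 46 were higher and 0 lower, against 711 and 888 of all 6297 genes. The 5 came from several roles: RCL1 (1.06 ± 0.26, adjusted p = 0.0457), UTP21 (0.98 ± 0.23, adjusted p = 0.0383), ENP2 (0.97 ± 0.19, adjusted p = 0.0238), UTP5 (0.96 ± 0.22, adjusted p = 0.04) and UTP30 (0.92 ± 0.19, adjusted p = 0.027).

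RCL1 (YOL010W, chromosome XV, 307938 to 309041) shows the shape of this pattern. It was at 363 and 361 CPM in WT glucose and between 148 and 226 CPM in the other 6 libraries, so WT glucose stood alone. UTP30, a ribosomal-protein-like factor, had the other shape: 26.6 and 28.7 CPM in WT glucose, 22.4 and 24.0 in brr6-1 glucose, 27.5 and 26.0 in brr6-1 galactose, and 15.6 and 18.0 in WT galactose, which stood alone below the rest. ENP2 was at 155 and 153 CPM in WT glucose, 121 and 118 in brr6-1 glucose, 173 and 134 in brr6-1 galactose, and 96.2 and 106 in WT galactose. UTP21 and UTP5 were highest in WT glucose and lowest in WT galactose, with the brr6-1 libraries between, apart from a UTP5 library of WT galactose at 281 CPM that overlapped brr6-1 glucose. UTP8 showed no difference, with all 8 libraries from 62.9 to 77.3 CPM (0.00 ± 0.19). RRP5, the long scaffold that serves both subunits, had a value near 0 but with a wide error, at -0.01 ± 0.34. Its replicates were far apart in brr6-1 glucose, at 1410 ± 556 CPM (SD, n = 2).

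None of these 5 calls held with every library left out. They were all lost without WT glucose A, WT glucose B, WT galactose A or brr6-1 galactose A. Not all of them were kept without brr6-1 glucose A, brr6-1 glucose B or brr6-1 galactose B, and all were kept without WT galactose B. The median of the 46 stayed positive in each of these fits, from 0.38 to 0.73. In each fit that lost all 5 calls, fewer of all genes were called as well, so the losses are not particular to these 5. A group left with 1 library was assumed to vary like the other groups.

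**Figure D4:**
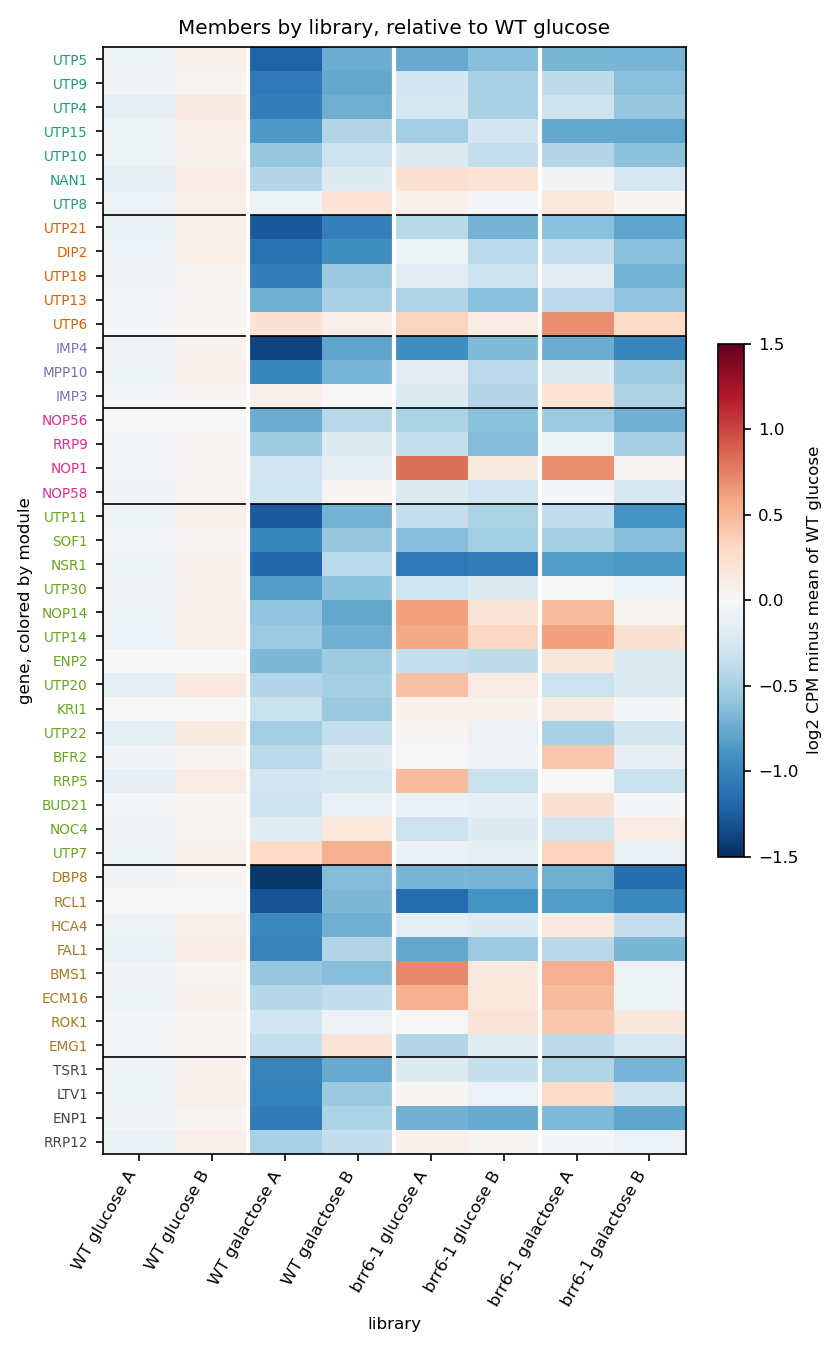
Log2 CPM of each gene in each of the 8 libraries minus its mean in WT glucose, grouped by complex or role; blue is lower and red higher. The WT galactose columns hold the darkest blue, with A above B for 7 of the 46 genes, while the brr6-1 columns hold both colours in either medium.

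In glucose, brr6-1 cells had lower RNA for some genes of the particle. This comparison shares the WT glucose libraries with the media change in WT, so their values are not independent. Compared with WT, 12 of the 46 genes were lower and 0 higher, with a median of -0.25 against 0.03 for all genes. The share called lower, 26.1%, is above the 19.5% of all genes but equal to the 26.1% of other genes within the range of mean level of the 46. That share does not set the 46 apart, though the other genes had a lower median level. Of the 46, 0 were higher where 16.7% of all genes were. The libraries of the strains did not overlap for 29 genes lower and 8 higher in brr6-1, against 36.8% and 38.3% of all genes. The 12 were spread over the roles: UTP5 of UtpA, UTP21 and UTP13 of UtpB, IMP4, NOP56 and RRP9 of the U3 snoRNP, RCL1, DBP8 and FAL1 among the enzymes, NSR1 and SOF1, and ENP1.

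NSR1 (YGR159C, chromosome VII, 806412 to 807656) was at 879 and 965 CPM in WT glucose and 439 and 449 in brr6-1 glucose, a log2 difference of -1.05 ± 0.21 (edgeR, adjusted p = 0.00612). Its groups were far apart, though the adjusted p was 0.0501 without WT glucose B. RCL1 was at 163 and 195 CPM in brr6-1 glucose against 363 and 361 in WT (-1.01 ± 0.19, adjusted p = 0.00434), and it was the one gene of the 12 called with each library left out. IMP4 was at 144 and 173 CPM against 263 and 283 (-0.78 ± 0.19), and ENP1 at 205 and 201 against 330 and 347 (-0.74 ± 0.17, adjusted p = 0.0105). Neither held without WT glucose A or WT glucose B, nor IMP4 without brr6-1 glucose A (adjusted p up to 0.076 for IMP4 and 0.0662 for ENP1). LTV1, which leaves the precursor later than many processome factors, did not pass, at 330 and 306 CPM against 309 and 344 (-0.04 ± 0.20). UTP10 (-0.27 ± 0.15), IMP3 (-0.32 ± 0.22) and UTP22 (-0.03 ± 0.14) did not pass. NOP1 was at 62.1 and 38.5 CPM against 34.7 and 35.4, with A far above B (0.52 ± 0.24, adjusted p = 0.11).

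These calls rested on few libraries and on the scaling. Of the 12, the calls kept were 3 without WT glucose A, 1 without WT glucose B, 6 without brr6-1 glucose A and 7 without brr6-1 glucose B. With library totals, which moved the median of all genes from 0.03 to 0.36 and the calls from 46.1% to 86.5% higher, the direction of the set turned: 11 of the 46 genes were higher and 2 lower, with a median of 0.07. Relative to the median of all genes the 46 were at -0.28 under either scaling, a value that these scalings can hardly change. With cyclic loess 6 were higher and 6 lower, and the 46 were at -0.03 relative to the median of all genes.

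The glucose difference varied with coding length. The 16 shortest genes, up to 1515 bp, had a median of -0.48 and 8 of them were lower; the 15 longest, above 2313 bp, had a median of 0.05 and 2 were lower; the 15 between had -0.25 and 2 lower. All 5757 tested genes with a length showed a like order over the same length classes, with medians of -0.14, 0.04 and 0.25 from short to long, and 996 of 3622 short genes lower against 31 of 908 long ones. The correlation of the difference with log2 length was 0.40 (Pearson) and 0.43 (Spearman) across the 46 genes, and -0.01 and 0.14 across the 5757. The difference between replicates also varied with length among the 46, at Pearson 0.47 for A minus B in brr6-1 glucose and -0.52 in WT glucose. The part of length in the strain difference was not tested beyond a fit, added after the data had been seen, that removed each library's trend with length: 17 genes were then lower and 0 higher, 11 of them among the 12.

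In galactose the brr6-1 strain had higher RNA for other genes of the particle, in a comparison that shares the WT galactose libraries with the media change in WT. Of the 46 genes 11 were higher than in WT and 0 lower, with a median of 0.28 against 0.01 for all genes. The share called higher, 23.9%, compares with 8.29% of all genes and 6.26% of other genes within the range of mean level of the 46. Of the 46, 0 were lower where 14.3% of all genes were. The strains did not overlap for 23 genes, all higher in brr6-1, against 32% of all genes higher and 34% lower. By role the 11 were 5 other processome factors (UTP14, NOP14, UTP30, ENP2 and KRI1), 4 enzymes (BMS1, HCA4, ECM16 and ROK1), DIP2 of UtpB, and LTV1. UtpA (7 genes), the Mpp10 complex (3) and the U3 snoRNP (4) had none. Where 8.29% of all genes were called, that is too few genes to set these complexes apart. At an unadjusted p under 0.05, 2, 1 and 1 of their genes were higher by edgeR's test, against 999 of all 6297 genes.

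UTP14 (YML093W, chromosome XIII, 83090 to 85789) was at 159 and 141 CPM in WT galactose and at 355 and 272 in brr6-1 galactose, a log2 difference of 1.07 ± 0.16 (edgeR, adjusted p = 0.0015). Both mutant libraries were far above both wild-type libraries, and it was the one gene of the 11 called with each library left out, with adjusted p up to 0.0196. NOP14 (YDL148C, chromosome IV, 188154 to 190586), a hub of the particle, was at 413 and 365 CPM in WT and 865 and 640 in brr6-1 (0.95 ± 0.19, adjusted p = 0.0069). BMS1 (YPL217C, chromosome XVI, 139620 to 143171) was at 553 and 528 CPM against 1190 and 775 (0.86 ± 0.23, adjusted p = 0.0227), with brr6-1 A well above B. LTV1 was at 162 and 221 CPM against 394 and 263 (0.78 ± 0.20, adjusted p = 0.0206), again with the groups apart and A highest. Without brr6-1 galactose A the adjusted p was 0.0773 for NOP14, 0.216 for BMS1 and 0.205 for LTV1; BMS1 was also lost without WT galactose B and LTV1 without WT galactose A.

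Bms1 and Rcl1 act as a pair, yet their genes stood differently in galactose: RCL1 was at 148 and 226 CPM in WT and 202 and 185 in brr6-1, with overlapping groups (0.05 ± 0.18). ENP1 overlapped as well, at 162 and 243 CPM against 214 and 196 (0.02 ± 0.17), as did NOP58 (0.00 ± 0.14) and UTP8 (0.01 ± 0.13). UTP10 (-0.09 ± 0.15), IMP3 (-0.12 ± 0.21) and UTP22 (0.05 ± 0.14) did not pass. NOP1 was at 28.8 and 31.7 CPM in WT and 56.6 and 36.2 in brr6-1, where the groups did not overlap but A lay far above B (0.62 ± 0.24, adjusted p = 0.0877). UTP7 had the lowest value of the 46, -0.29 ± 0.17 (adjusted p = 0.226).

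Most of the galactose calls depended on brr6-1 galactose A, the library in which 42 of the 46 genes were higher than in its replicate. Without it only UTP14 was still called, and the median of the 46 was 0.13. The calls kept were 7 with either WT galactose library left out, 7 with either WT glucose library left out and 9 without brr6-1 galactose B; without WT galactose A, 2 of the 46 genes were called lower. The median of the 46 without WT galactose A was 0.12, so it depended on that library about as much. Calls over all genes also became fewer without brr6-1 galactose A. With library totals 26 of the 46 genes were higher and 0 lower, as the median of all genes moved from 0.01 to 0.25 and the calls from 36.7% to 75% higher.

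The strain differences in glucose and galactose come from separate libraries. No gene was called in both. By the fitted value 24 of the 46 genes were lower in brr6-1 in glucose and higher in galactose, 13 were higher in both and 8 lower in both, and none was higher in glucose and lower or at 0 in galactose. The same signs were not counted over all genes, so these counts have no background beside them. The 13 higher in both included UTP14 (0.44 in glucose and 1.07 in galactose), NOP14 (0.42 and 0.95), BMS1 (0.46 and 0.86) and ECM16 (0.36 and 0.62), none of which passed in glucose. NSR1, at -1.05 and -0.11, and NOP56, at -0.54 and -0.06, were among those lower in both.

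**Figure D5:**
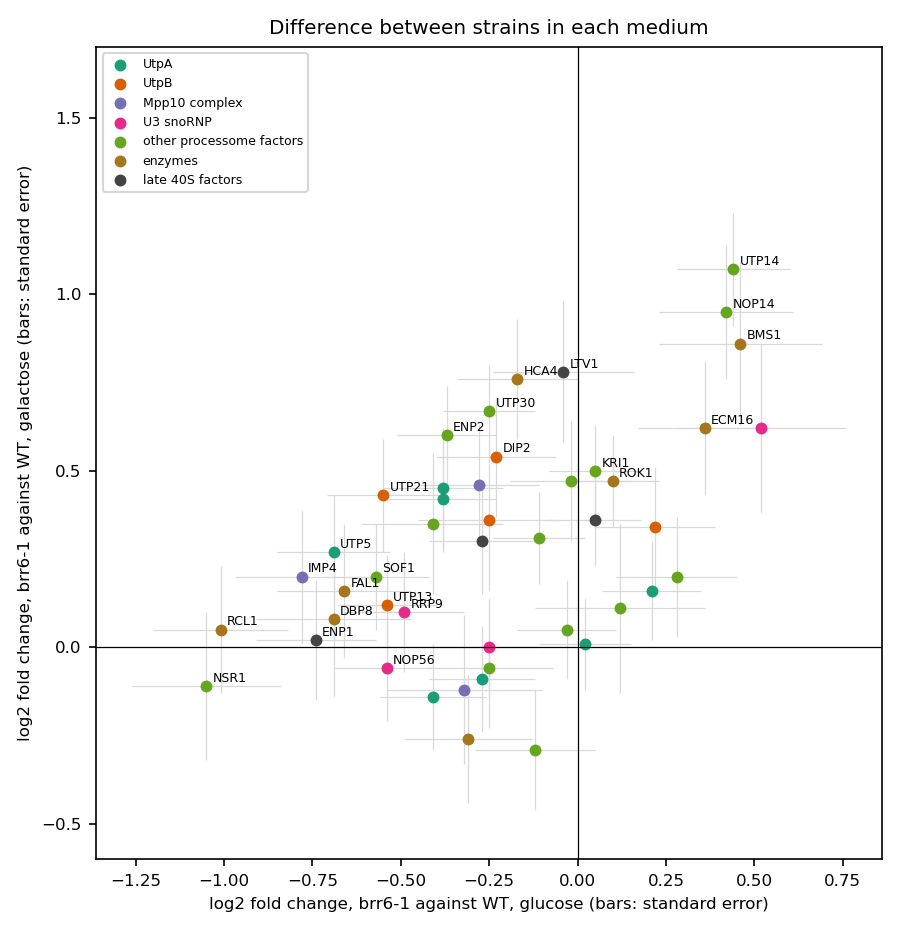
Log2 difference of brr6-1 against WT in glucose (horizontal) and galactose (vertical) for each of the 46 genes, with standard errors as bars and colours for complex or role. Genes called in either medium are named; 24 of the 46 lie in the upper left, lower in glucose and higher in galactose.

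Other 40S assembly genes that are not among the 46 were read from a list of 37. In WT 26 of the 37 (70.3%) fell in galactose and 0 rose, against 20.5% of all genes lower, led by UTP23 (-1.36 ± 0.22), KRR1 (-1.2 ± 0.21), TSR4 (-1.2 ± 0.18) and FYV7 (-1.03 ± 0.16). In brr6-1 0 fell and 2 rose, the kinase gene RIO1 (0.63 ± 0.11) and FCF1 (0.60 ± 0.13). These 2 are 5.41% of the list, below the 8.75% of all genes called higher there, where 7.26% were called lower. In brr6-1 against WT, 14 were lower in glucose, such as SLX9 (-0.97 ± 0.21) and PNO1 (-0.89 ± 0.20), and 1 was higher, PWP2 (0.81 ± 0.16), the UtpB subunit gene outside the 46, which lies on chromosome III. The 14 are 37.8% of the list, where 19.5% of all genes and 26.1% of genes within the level range of the 46 were lower. In galactose 15 (40.5%) were higher and 0 lower, against 8.29% of all genes higher; 4 of these 15 lie on chromosome III, and 11 of the 33 genes outside it were higher, SAS10 the most (1.01 ± 0.17). The difference between media was called for 3, FYV7 (1.00 ± 0.22), SGD1 (0.82 ± 0.20) and TSR3 (0.72 ± 0.17), which is 8.11% against 1.65% of all genes.

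RNA polymerase I makes the precursor that the particle binds. Of its 8 listed genes 5 (62.5%) fell in WT in galactose, against 20.5% of all genes, among them RPA34 (-1.10 ± 0.18), RPA190 (-0.94 ± 0.21) and the initiation factor gene RRN3 (-0.83 ± 0.16). In brr6-1 1 of the 8 fell (12.5%), against 7.26% of all genes. It was RPA135 (-0.55 ± 0.16), which in WT was at -0.62 and turned to 0.02 under cyclic loess. In brr6-1 against WT, RPA43 (-0.72 ± 0.17) and RPA34 (-0.59 ± 0.18) were lower in glucose. This 25% is near the 19.5% of all genes and the 26.1% of genes within the level range of the 46. RRN3 (0.88 ± 0.16) was higher in galactose, 1 of 8 (12.5%) against 8.29% of all genes. Of 7 regulators of ribosome genes, 2 rose in WT in galactose, near the 24.3% of all genes called higher: SFP1 (0.65 ± 0.16), an activator, and SCH9 (0.61 ± 0.15), a kinase. None of the 7 fell. In brr6-1 against WT, 4 were higher in glucose, TOD6 (0.73 ± 0.22), SFP1 (0.70 ± 0.16), SCH9 (0.68 ± 0.15) and FHL1 (0.50 ± 0.15), and 3 in galactose, TOD6 (1.02 ± 0.22), FHL1 (0.53 ± 0.15) and IFH1 (0.48 ± 0.13), where 16.7% and 8.29% of all genes were called higher. SCH9 and FHL1 are longer than 2313 bp, a class in which 292 of 908 genes were higher in brr6-1 in glucose. TOD6 and SFP1 lie between 1515 and 2313 bp, where 272 of 1227 genes were. Tod6 is a repressor of ribosome biogenesis genes. TOD6 RNA was low, at a mean of 3.44 log2 CPM, and the median of the 7 was 3.6. STB3 and DOT6, also among the 7, were called in neither medium.

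The series also holds ChIP-seq of Brr6 fragments. Of the 30 gene IDs listed at its 22 peaks, 0 were among the 46 genes and 0 in the other lists described here. With 30 IDs beside 6572 features in the count files, these counts of 0 say little about binding at these genes.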

How the data were processed

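For each RNA library the authors deposited unnormalized counts of reads per gene. The submitters' processing notes name cutadapt, TopHat, HTSeq and genome build R64. Which strand HTSeq counted is not stated there, so a gene and an antisense partner cannot be told apart. HTSeq's 5 summary lines were not used. Reads that fell in no gene made up 23.4 to 37.5% of reads placed in or outside single genes, and alignments that were not unique 53.5 to 65.3% of all that HTSeq tallied. The deposited ChIP peak table was used for its gene IDs alone.

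Of 6572 IDs, 5898 matched the RefSeq gene table of R64, which gave symbols, positions and coding lengths. The 6297 genes that passed filterByExpr (minimum count 10) were scaled by TMM and fitted with edgeR's quasi-likelihood model over 8 libraries and 4 groups, with 4 residual degrees of freedom. Adjusted p is Benjamini-Hochberg over all genes tested in each of 5 comparisons, with a threshold of 0.05, and the SE of a log2 difference was taken from the F statistic. The 46 genes, their grouping by role and the other lists were chosen with earlier results of these data known. Genes within the level range of the 46 are those between their lowest and highest mean CPM, with the 46 and chromosome III left out. They were not matched to the 46 gene by gene. Values in every library were printed for the up to 4 largest rises and falls called in a comparison, for NOP1, UTP10, IMP3, UTP22, ENP1 and LTV1, and for the smallest changes; others shown, such as UTP6, UTP7, UTP20 and the genes of the tested difference, were chosen after their values were seen, and not every value that rule allows is printed. Replicates A and B were separate cultures per the labels. Scripts were tested on simulated counts. Alternatives were 3 scalings, 2 filters, DESeq2, a replicate block, smaller fits and each library left out. Tools were R 4.3.3, edgeR 4.0.16, limma 3.58.1, DESeq2 1.42.0, Python 3.11.15, pandas 2.3.3, numpy 2.4.6, scipy 1.17.1 and matplotlib 3.10.9.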

Additional observations from a re-analysis of the deposited data

Results flagged for a closer look

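For 5 genes of the particle the difference between brr6-1 and WT was not the same in the 2 media, by edgeR's test of the difference itself. On the log2 scale, galactose minus glucose, it was 0.96 for UTP5, 0.97 for ENP2, 0.92 for UTP30, 0.98 for UTP21 and 1.06 for RCL1, with adjusted p from 0.0238 to 0.0457. None of the 46 was called with the opposite sign. No gene of the 46 was called without WT glucose A, WT glucose B, WT galactose A or brr6-1 galactose A. In those fits calls over all genes became fewer as well.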

How the results depend on the processing

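Directions of the medians held for the fall in WT, for the strain difference in galactose and for the tested difference under all alternatives; the cause of the changes below was not tested. For brr6-1 against WT in glucose, library totals gave 11 higher, 2 lower and a median of 0.07, cyclic loess 6 higher, 6 lower and a median of -0.05, and 1 gene was higher under DESeq2's Wald test, a filter of at least 100 counts in 2 libraries, the replicate block and a fit of only the 4 libraries compared; with a library left out 0 to 4 were higher and 1 to 15 lower. In galactose 26 were higher with library totals (median 0.53), 19 with cyclic loess, 18 with the filter of 100 counts and 7 in the fit of 4 libraries, and with a library left out 1 to 12 were higher and 0 to 2 lower. For galactose against glucose in WT, library totals gave 2 higher, 16 lower and a median of -0.32, cyclic loess 18 lower and a median of -0.35, and the fit of 4 libraries 1 higher; with a library left out 0 to 1 were higher and 17 to 31 lower. Under cyclic loess UTP20 turned to 0.16 and RPA135 to 0.02. In brr6-1, DESeq2 size factors gave 1 lower, library totals 2 higher with a median of 0.2 and DESeq2's Wald test 2 lower, and 0 to 2 were lower with a library left out. For the difference, cyclic loess called 3, the filter of 100 counts 9, DESeq2's Wald test 16, and removal of each library's length trend, added after the data had been seen, 13; with a library left out 0 to 20 were called. Library totals moved the calls of all genes from 54.7% to 80.9% higher for galactose against glucose in brr6-1, and from 29.5% to 18.4% for the tested difference. The letters A and B were not treated as pairs in the main fit. Correlations of same-letter deviations between groups ran from -0.077 to 0.281 over all genes and from -0.205 to 0.557 over the 46, so not every pair was above 0.1. Over the 46, brr6-1 glucose was at 0.557 with WT galactose and 0.479 with brr6-1 galactose. Whether a letter marks a shared day for some groups is not known. With the replicate block 13 genes were lower and 1 higher in glucose, 10 higher in galactose, 30 lower in galactose in WT, 0 either way in brr6-1, and 5 higher for the tested difference. A search of promoters for the PAC and RRPE motifs was not run, since no promoter sequences were used here.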
